A study of Homo sapiens with 42 samples.

Results

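The genes described here encode proteins that turn a precursor tRNA into a mature one and move it out of the nucleus. They were taken from a list of 47 symbols, and their transcripts' estimated read counts were summed per gene. Of the 47, 46 were found among the 34318 genes of the files and all 46 passed the filter on low counts in every comparison. The remaining symbol, ARCHS, matched no gene name (RefSeq gives the similar name ARCH as a synonym of ZBTB8OS, which was not counted as a member). Messenger RNA was measured by poly(A)-selected RNA sequencing in 42 libraries of human cell lines in which RNA polymerase III (Pol III), the enzyme that makes tRNA precursors, was disturbed.

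In HEK293T, an embryonic kidney line, POLR3G, one of the alternative subunits of Pol III, was targeted for 48 h either by a POLR3G antisense oligonucleotide (ASO), set against a scramble ASO, or by a POLR3G siRNA, set against a control siRNA, all at 200 nM. Its paralog POLR3GL was targeted for 48 h at 25 nM by siRNAs named siE4, siE6 and siE8, set against a control siRNA at 25 nM. MAF1, a repressor of Pol III, was overexpressed from a plasmid for 48 h, with eGFP overexpression as the control. THP-1 cells, a monocytic leukaemia line, received DMSO, ML-60218, a small molecule that inhibits Pol III, at 25 uM for 4 h, cycloheximide (CHX), which blocks translation, at 10 ug/ml for 4.5 h, or both. Each of the 14 groups had 3 libraries. Oligonucleotides were delivered by transfection, so cells that took up none are in the same libraries, and a single ASO and a single siRNA were used against POLR3G. The ASO and siRNA experiments had separate controls. Levels of several members differed between the controls of the experiments, and the part of this in the results below was not tested. The siE4, siE6 and siE8 comparisons share their control libraries, ML-60218 and CHX share the DMSO libraries, and the CHX libraries are also the control of the combined treatment.

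A tRNA precursor loses its leader to RNase P, a ribonucleoprotein whose proteins are largely shared with RNase MRP, and its trailer to RNase Z (ELAC2). TRNT1 then adds the CCA end that carries the amino acid. Some precursors hold an intron, which the TSEN endonuclease cuts out and the RTCB ligase complex seals. Methyltransferases, deaminases, thiolases, dihydrouridine and pseudouridine synthases modify bases of the body and the anticodon loop, and exportin-t (XPOT) carries tRNA through the nuclear pore. All these proteins are encoded by mRNAs that Pol III does not make.

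RefSeq upstream sequence (GRCh38.p14) was at hand for 38 of the 47 symbols. The 100 bases directly before the RefSeq start of TRMT61A and TRMT6 are printed because these genes encode the catalytic and the RNA-binding subunit of the same methyltransferase, and because their mRNAs changed in the same direction in some knockdowns and in opposite directions in others. Capitals mark matches to the ETS-type motif CCGGAAG on either strand, 1 match in TRMT61A and 2 overlapping matches in TRMT6. The windows run 5′ to 3′ on the strand of the gene, chr14:103529096-103529195 on the plus strand and chr20:5950534-5950633 on the minus strand.
TRMT61A: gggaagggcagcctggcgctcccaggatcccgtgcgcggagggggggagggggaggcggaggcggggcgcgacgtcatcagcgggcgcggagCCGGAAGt
TRMT6: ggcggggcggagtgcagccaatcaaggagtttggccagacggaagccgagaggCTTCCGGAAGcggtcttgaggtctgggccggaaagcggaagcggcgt
In the 250 bases before the start, CCGGAAG was found on either strand in 10 of the 38 genes (DDX1, ELAC1, ELAC2, POP7, THG1L, TRMT10C, TRMT11, TRMT6, TRMT61A and XPOT) and in 8.82% of all 27305 upstream windows of that length. The NRF1-type motif TGCGCA was found in 5 of the 38 (DUS2, RPP30, RPP38, TSEN34 and XPO5) against 7.05% of all windows. The E-box CACGTG was found in 1 (POP7) against 6.49%, and TGATGNAA, an ATF4-type core, and AAGATGGC, a YY1-type motif, in 0 against 3.19% and 1.37%. In the 15843 windows of protein-coding genes, the type of all members, the shares were 11.8% for CCGGAAG, 9.1% for TGCGCA and 7.84% for CACGTG. For TGATGNAA and AAGATGGC they were 2.21% and 1.39%. A match describes letters and is not evidence of a bound factor.

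The libraries held 32705684 to 52568088 estimated reads. Levels below are CPM, a library's counts scaled to a common total, after TMM normalization within an experiment, and fold changes are log2 values from edgeR given as value ± standard error (SE), called at an adjusted p under 0.05. Levels of the targeted genes served as a check of the labels. POLR3G was lower with its ASO (log2 -1.49 ± 0.16) and its siRNA (-1.25 ± 0.15), POLR3GL was lower with siE4, siE6 and siE8 (-3.56, -3.35 and -3.71), and MAF1 was higher after overexpression (6.22 ± 0.063). MAF1 was also lower with the POLR3G siRNA (-2.34 ± 0.050), and POLR3G was lower with siE4, siE6 and siE8 (-0.85, -0.56 and -0.93). Every library with a POLR3G reagent also held less POLR3GL than all of its control libraries. POLR3GL stood at 29.2, 33.6 and 32.2 CPM with the scramble ASO and at 22.3, 24.5 and 23.1 CPM with the POLR3G ASO. With the 200 nM control siRNA it was at 31.7, 31.3 and 33.1 CPM and with the POLR3G siRNA at 21.0, 21.9 and 21.7 CPM. The summed level of 10 monocytic markers was 3741 to 5862 CPM in the THP-1 groups and 3.13 to 8.08 CPM in the HEK293T groups except the POLR3G ASO, where it was 39.0 ± 0.77 CPM (SD, n = 3) and 5 of the 5 markers tested were higher, while PTPRC and TYROBP were at 0. The summed level of 6 HEK293T markers was 2373 CPM with the POLR3G siRNA against 950 CPM in its control, and 545 CPM with siE6 against 1303 CPM. The part of these shifts in the results below was not tested.

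In HEK293T, every knockdown changed a large part of all genes, members among them. Members called were 30, 41, 27, 41 and 35 of 46 for the ASO, POLR3G siRNA, siE4, siE6 and siE8. Of all genes, 11713 of 17098 and 11551 of 15423 were called for the first of these treatments, the ASO and POLR3G siRNA. For siE4, siE6 and siE8, 8553, 9817 and 8985 of 15573 were called. More members were called higher than lower, with a nearly even split for siE4. With the POLR3G ASO, 21 of 46 members were called higher and 9 lower, beside 34.4% and 34.1% of all genes tested. With the POLR3G siRNA, 33 were higher and 8 lower, beside 36.8% and 38.1% of all genes. The median log2 fold change of the members was 0.13 with the ASO and 0.31 with the siRNA, and that of all genes was -0.0033 and -0.020. In bulk RNA, fewer cells of a type and less RNA per cell cannot be told apart.

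Among the siRNAs to POLR3GL, siE4 gave 14 members higher and 13 lower (26.2% and 28.7% of all genes), siE6 gave 32 and 9 (31.2% and 31.8%), and siE8 gave 27 and 8 (29.1% and 28.6%). Their median log2 fold changes were 0.044, 0.30 and 0.25, while those of all genes were -0.021, -0.0018 and -0.0090. Members called past a 2-fold change numbered 2 with the ASO, 9 with the POLR3G siRNA, 0 with siE4, 2 with siE6 and 1 with siE8, beside 15.9%, 15.4%, 6.0%, 10.9% and 7.69% of all genes tested. Libraries of treated and control groups did not overlap for 34, 41, 27, 41 and 39 of the 46 members in the same order of treatments, beside 73.0%, 77.9%, 60.2%, 67.5% and 60.6% of all genes. Of the 174 calls of members in these 5 knockdowns, adding average transcript length to the fit ended 22, turned 1 in direction and moved 10 others by over 1.5 times. Counting protein-coding transcripts alone ended 9, turned 2 and moved 9. Counts by role below stand beside the same shares of all genes called higher or lower in each knockdown.

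**Figure D1:**
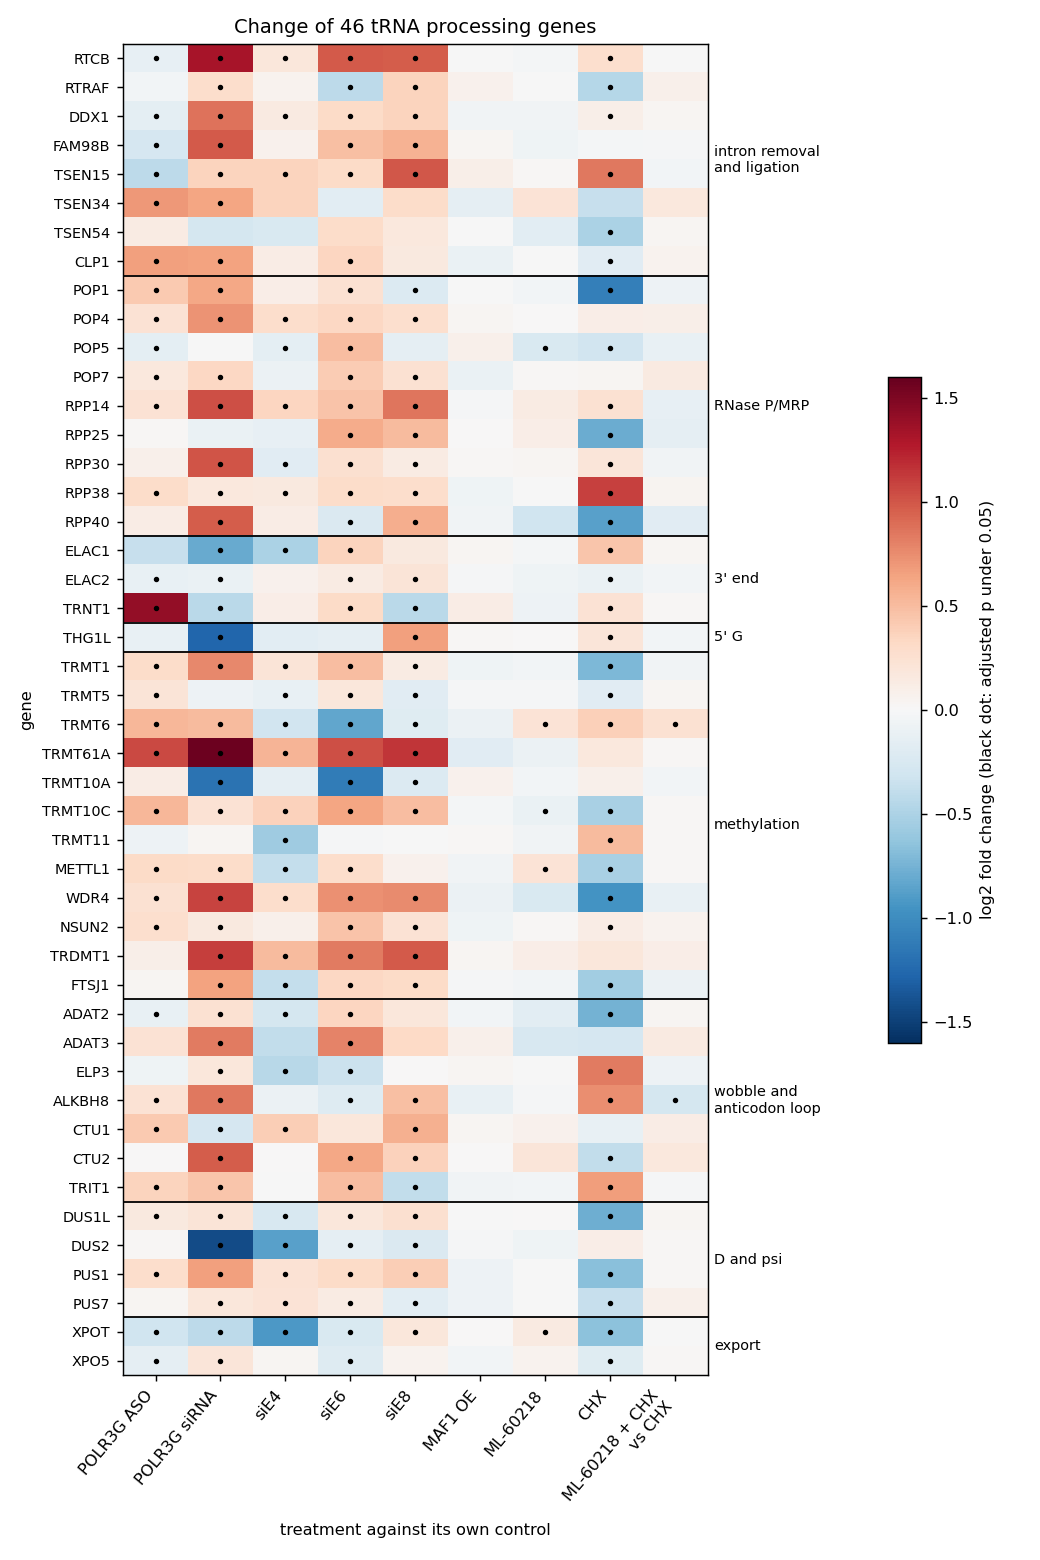
Log2 fold changes of the 46 members (rows, grouped by role) in 9 treatments (columns), each against its own control, with colour from lower (blue) to higher (red) and a black dot where edgeR's adjusted p was under 0.05. The POLR3G siRNA column holds 33 dots on higher members and 8 on lower ones, and the MAF1 column holds none.

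The proteins that remove introns and join the exons formed the group with the largest single rise outside methylation in the POLR3G siRNA libraries. RTCB (chromosome 22, 32387582 to 32412255, GRCh38), the catalytic subunit of the tRNA ligase that also joins XBP1 mRNA in the unfolded protein response, was at 91.2, 92.0 and 91.7 CPM in the control libraries and at 226, 232 and 229 CPM with the POLR3G siRNA. The groups did not overlap, and the log2 fold change was 1.32 ± 0.019 (adjusted p = 1.75e-10), a 2.50-fold rise. With siE6 it was at 206, 209 and 195 CPM and with siE8 at 187, 210.1 and 207 CPM, all above the 25 nM control libraries at 98.1, 104 and 105 CPM. Those rises were 0.99 ± 0.051 and 0.97 ± 0.051, and siE4 gave a smaller rise of 0.18 ± 0.051. With the POLR3G ASO, RTCB fell slightly, from 165, 162 and 160.1 CPM to 145, 149 and 151 CPM (-0.13 ± 0.025, and -0.075 on protein-coding transcripts alone). The siRNA controls thus held less RTCB than the scramble ASO control and the eGFP control (168, 171 and 168 CPM). CPM was normalized within each experiment, which limits this comparison.

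RTCB's partners in the ligase complex moved with it in the POLR3G siRNA libraries. DDX1, the RNA helicase of the complex, rose by 0.87 ± 0.018, FAM98B, another core subunit, by 0.98 ± 0.056, and RTRAF, also a core subunit, by 0.29 ± 0.023 on the log2 scale. With siE8 all 4 rose, by 0.35 (DDX1) to 0.97 (RTCB). With siE6, RTCB, DDX1 and FAM98B rose but RTRAF fell, from 150.0, 170.3 and 164 CPM to 118, 126 and 119 CPM (-0.42 ± 0.057). With the ASO, DDX1 and FAM98B were lower like RTCB, at -0.16 (-0.11 on protein-coding transcripts) and -0.27 ± 0.030, and RTRAF was not called (-0.04). RTRAF overlaps NID2 on the opposite strand, and whether reads were assigned by strand is not given in the sources used here.

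**Figure D2:**
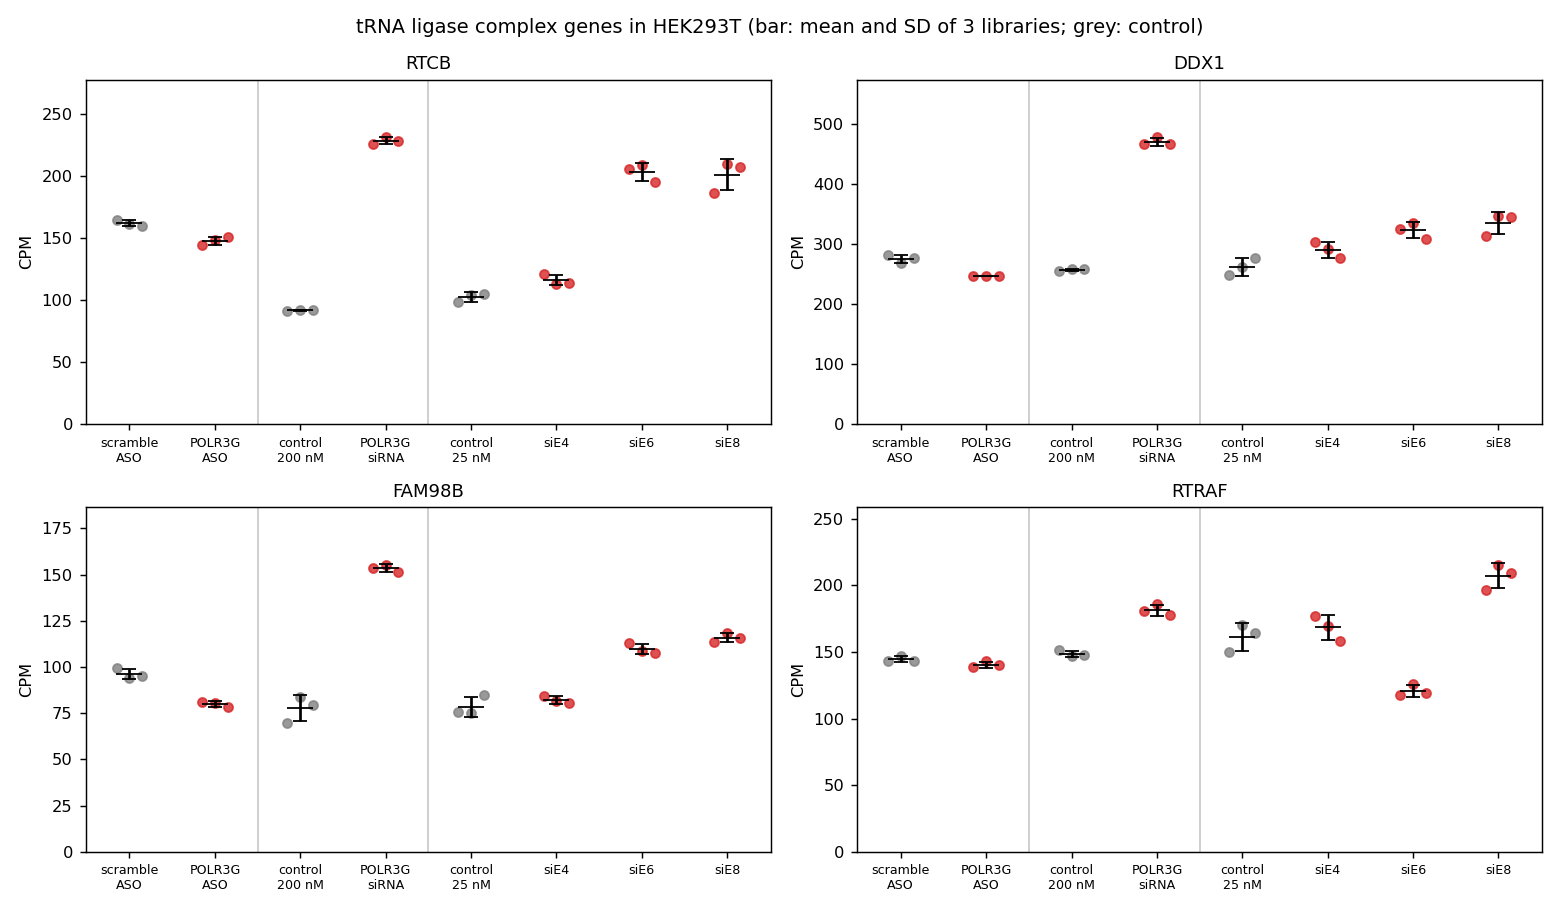
CPM of RTCB, DDX1, FAM98B and RTRAF in the 24 libraries of the ASO and siRNA experiments in HEK293T (points are libraries, bars mean and SD of 3, grey points controls, vertical lines separate experiments). RTCB lies between 226 and 232 CPM with the POLR3G siRNA and between 91.2 and 92.0 CPM in its control, and RTRAF with siE6 lies below its control.

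Among the endonuclease proteins, TSEN15, a structural subunit, took opposite directions in different knockdowns. It stood at 80.2, 85.2 and 84.1 CPM with the scramble ASO and at 59.0, 65.6 and 62.7 CPM with the POLR3G ASO, a log2 change of -0.41 ± 0.042 with no overlap. With siE8 it rose from 49.1, 52.0 and 48.5 CPM to 91.9, 102 and 104 CPM (1.00 ± 0.052), and it also rose with the POLR3G siRNA, siE4 and siE6 (0.36, 0.36 and 0.31). CLP1, an RNA kinase bound to the endonuclease, rose from 17.2, 15.4 and 16.1 CPM to 26.4, 24.3 and 25.8 CPM with the ASO (0.65 ± 0.058) and by 0.64 ± 0.050 with the POLR3G siRNA. TSEN34, a catalytic subunit with the lowest level per length of all members in HEK293T, was called higher in those same comparisons (0.69 ± 0.15 and 0.63 ± 0.15). TSEN54, a structural subunit, was called in none of the 5 knockdowns over all its reads, at -0.28 (POLR3G siRNA) to 0.29 (siE6). On protein-coding transcripts alone it was called lower with siE4 (-0.38, adjusted p = 0.0186) and higher with siE6 (0.34, 0.0267) and siE8 (0.60, 0.000841), and with average length in the fit it was called higher with siE6 (0.32) and siE8 (0.42). In all, the 8 intron and ligation genes gave 2 higher and 4 lower calls with the ASO, 7 and 0 with the POLR3G siRNA, 3 and 0 with siE4, 5 and 1 with siE6, and 5 and 0 with siE8.

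Proteins of RNase P and MRP were higher in most calls. Of 9 genes, 5 rose and 1 fell with the ASO, 7 and 0 with the POLR3G siRNA, 3 and 2 with siE4, 8 and 1 with siE6, and 7 and 1 with siE8. RPP14 and RPP38, both protein subunits of RNase P, were the members called higher in 6 of the 9 treatments, a count in which several treatments share controls. The share of all genes that reach this count was not computed. RPP14 (chromosome 3, 58306247 to 58324695) was at 70.6, 68.9 and 78.8 CPM in the 200 nM control and at 148, 151 and 149 CPM with the POLR3G siRNA (1.03 ± 0.045). At 25 nM its control libraries held 66.6, 64.1 and 69.6 CPM and its siE8 libraries 118, 122 and 124 CPM (0.86 ± 0.042), with smaller rises for siE4 (0.35) and siE6 (0.45). Its ASO rise was 0.23 ± 0.025 and was not called once average transcript length entered the fit (0.076, adjusted p = 0.0936). RPP14 shares its strand with the overlapping gene HTD2, so the division of reads between them is uncertain.

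RPP38 rose less in HEK293T, by 0.16 with siE4 to 0.30 with siE6. The siE4 call was lost without any one library of the comparison except the third siE4 library (adjusted p = 0.0542 to 0.162). RPP30 and RPP40, further subunits, rose by 1.01 ± 0.038 and 0.97 ± 0.051 with the POLR3G siRNA. RPP30 was also called higher with siE6 (0.25, and 0.15 with average length in the fit) and siE8 (0.13, not called with that length, adjusted p = 0.455). It was called lower with siE4 (-0.18), but not on protein-coding transcripts alone (adjusted p = 0.0795). The siE8 call was also lost without any one of the first and the second control library and the second and the third siE8 library (adjusted p = 0.0717 to 0.106). RPP40 was lower with siE6 (-0.23 ± 0.067) and higher with siE8 (0.58 ± 0.066). POP1, the largest protein of the complex, rose with the ASO (0.42 ± 0.041) and the POLR3G siRNA (0.61 ± 0.039), and was called higher with siE6 (0.24) and lower with siE8 (-0.22). The siE6 and siE8 calls were lost with average length in the fit (adjusted p = 0.108 and 0.110). POP4, a subunit that binds the RNA, rose by 0.72 ± 0.035 with the POLR3G siRNA.

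TRNT1, which adds the CCA end (chromosome 3, 3126916 to 3150879), gave the largest rise of any member with the POLR3G ASO. Its libraries stood at 116, 122 and 124 CPM with the scramble ASO and at 312, 320.0 and 326 CPM with the POLR3G ASO, a log2 change of 1.41 ± 0.031 (adjusted p = 2.53e-08). Nearly all of these reads were assigned to TRNT1-209, a transcript annotated as retaining an intron, which took 72.4% to 98.9% of TRNT1 reads over the 14 groups. TRNT1-209 was at 108, 116 and 118 CPM with the scramble ASO and at 308, 316 and 323 CPM with the POLR3G ASO. The protein-coding transcripts went the other way, from 6.01, 3.74 and 3.94 CPM to 0.893, 1.05 and 0.744 CPM. A fit on protein-coding transcripts alone gave a log2 change of -2.27 (SE 0.23, edgeR adjusted p = 8.93e-05), the reverse of the gene's sum. TRNT1 overlaps CRBN on the opposite strand.

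With the other reagents TRNT1 as a whole was lower with the POLR3G siRNA (-0.44 ± 0.027) and siE8 (-0.43 ± 0.087), higher with siE6 (0.30 ± 0.085) and not called with siE4 (0.11). On protein-coding transcripts alone it was lower with the POLR3G siRNA (-1.06), siE4 (-0.53) and siE8 (-0.42), and not called with siE6 (0.19). ELAC2, the RNase Z that cuts off the trailer, moved by at most 0.20 in any HEK293T knockdown (siE8). ELAC1, a shorter relative of ELAC2, was lower with the POLR3G siRNA (-0.81 ± 0.12) and siE4 (-0.50 ± 0.12), and was called higher with siE6 (0.36 ± 0.12) but lower there on protein-coding transcripts (-0.49). The call over all reads was lost without the second control library (adjusted p = 0.0521). THG1L, which adds the guanylate at the 5′ end of histidine tRNA, was at 28.4, 28.8 and 29.1 CPM in the 200 nM control and at 11.6, 11.9 and 12.2 CPM with the POLR3G siRNA, a log2 change of -1.27 ± 0.038 with widely separated libraries. It rose with siE8 (0.66 ± 0.070) and was not called in the remaining knockdowns.

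**Figure D3:**
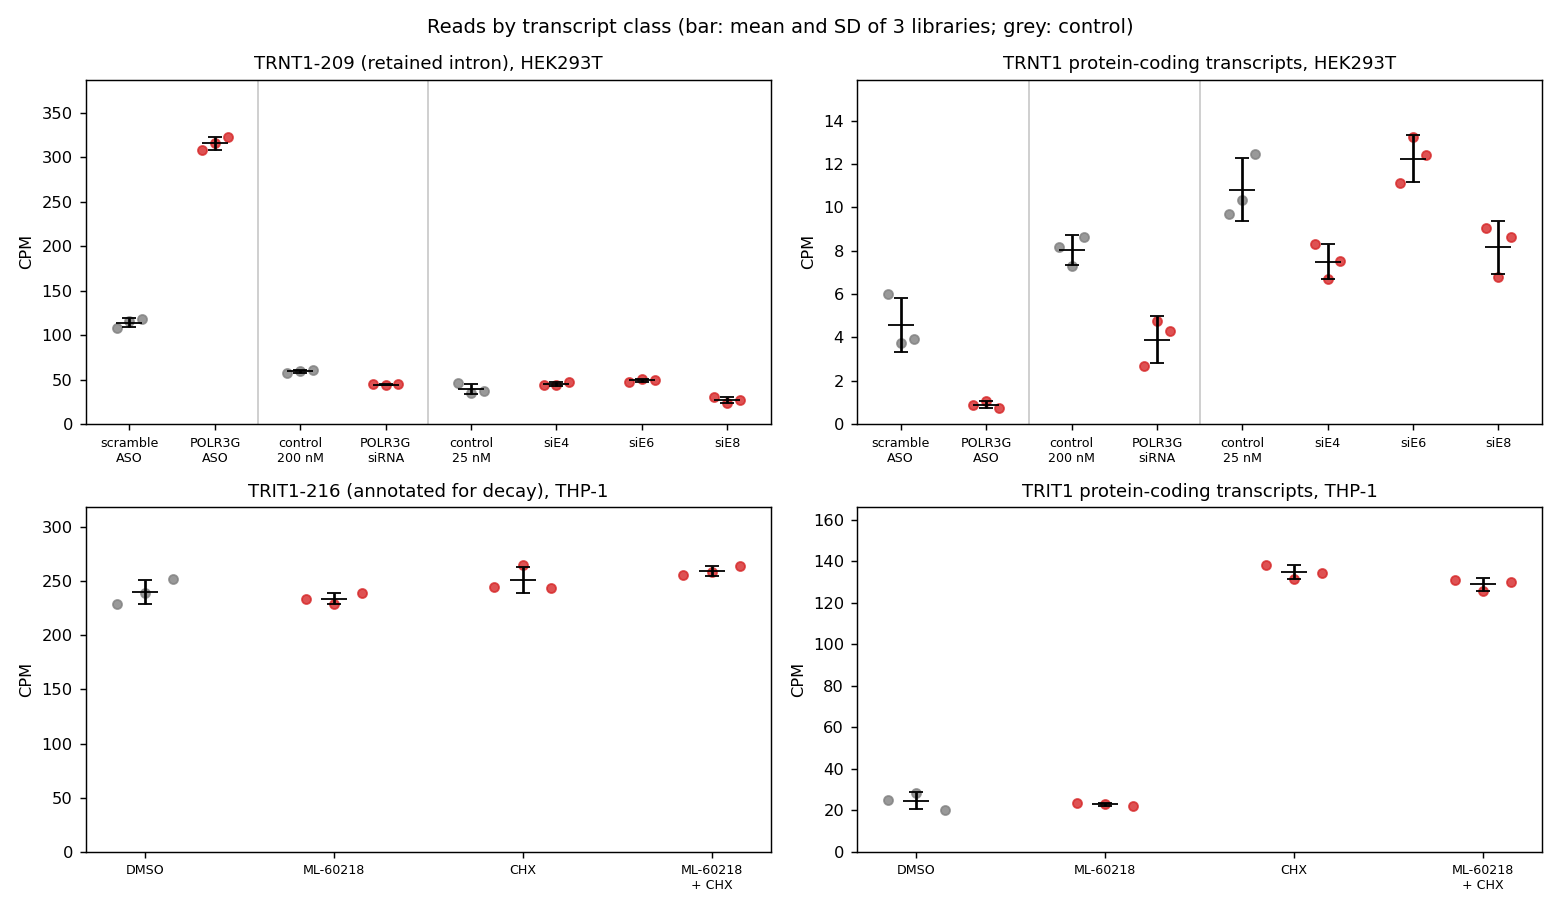
CPM by transcript class in each library: TRNT1-209 and the protein-coding transcripts of TRNT1 in HEK293T (upper panels), TRIT1-216 and the protein-coding transcripts of TRIT1 in THP-1 (lower panels), with points for libraries, bars for mean and SD of 3 and grey points for controls. With the POLR3G ASO, TRNT1-209 rises from 114 to 316 CPM while the protein-coding transcripts fall from 4.56 to 0.895 CPM.

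Methylation enzymes were mostly higher except with siE4, where they split evenly. Of 12 genes, 8 rose and 0 fell with the ASO, 9 and 1 with the POLR3G siRNA, 5 and 5 with siE4, 9 and 2 with siE6, and 7 and 3 with siE8. TRMT61A (chromosome 14, 103529184 to 103537073), the catalytic subunit of the enzyme that makes 1-methyladenosine in the tRNA body, rose in all 5 knockdowns. It was at 4.99, 5.14 and 4.09 CPM in the 200 nM control and at 13.8, 15.0 and 13.2 CPM with the POLR3G siRNA (1.56 ± 0.098). With the ASO it went from 9.12, 8.69 and 8.09 CPM to 17.4, 17.1 and 19.5 CPM (1.06 ± 0.076). The 25 nM control libraries held 4.61, 5.17 and 4.42 CPM, those of siE4 7.80, 5.58 and 7.30 CPM, of siE6 9.76, 9.97 and 9.24 CPM and of siE8 10.1, 10.7 and 10.8 CPM. No treated library overlapped its control, and the rises were 0.54 ± 0.11, 1.03 ± 0.11 and 1.15 ± 0.11. In the eGFP control TRMT61A was at 10.1, 10.2 and 10.2 CPM, so the HEK293T controls differed in level.

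TRMT6 (chromosome 20, 5937235 to 5950558), the subunit that binds tRNA beside TRMT61A, rose with it under both POLR3G reagents and fell with siE4, siE6 and siE8. These sets differ in target, dose and experiment, which cannot be told apart, and each also held less of the other paralog. It was at 38.5, 41.5 and 41.4 CPM and 55.4, 59.0 and 61.9 CPM in the ASO experiment (0.54 ± 0.048) and at 47.8, 45.9 and 46.6 CPM and 65.7, 67.1 and 66.0 CPM in the POLR3G siRNA experiment (0.50 ± 0.026). At 25 nM its control libraries held 43.5, 42.8 and 45.0 CPM, and it was lower with siE4 (36.9, 34.4 and 35.2 CPM), siE6 (25.2, 26.0 and 22.9 CPM) and siE8 (35.7, 40.5 and 39.2 CPM). Their log2 changes were -0.30 ± 0.057, -0.83 ± 0.058 and -0.19 ± 0.057, against rises of TRMT61A in the same libraries. The siE8 fall was not called without the first siE8 library (-0.13, adjusted p = 0.0581). The windows before the RefSeq starts of both genes, printed above, each hold a CCGGAAG match. That of TRMT61A lies inside the gene by the GENCODE annotation.

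The pair METTL1 and WDR4, the catalytic subunit and the partner of the 7-methylguanosine enzyme, parted with siE4. METTL1 went from 10.4, 11.2 and 11.2 CPM to 8.17, 8.36 and 8.69 CPM (-0.38 ± 0.068), while WDR4 went from 12.4, 11.2 and 11.9 CPM to 13.9, 14.6 and 14.7 CPM (0.29 ± 0.060). Both rose with the POLR3G siRNA and siE6, where WDR4's rise was 1.08 and 0.72 and METTL1's 0.29 and 0.29. With siE8, WDR4 rose by 0.76 ± 0.060 and METTL1 was not called (0.06). METTL1 overlaps CYP27B1 on its own strand and EEF1AKMT3 on the other. In the scramble ASO control WDR4 was at 22.9, 22.1 and 21.5 CPM, above the siRNA controls.

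**Figure D4:**
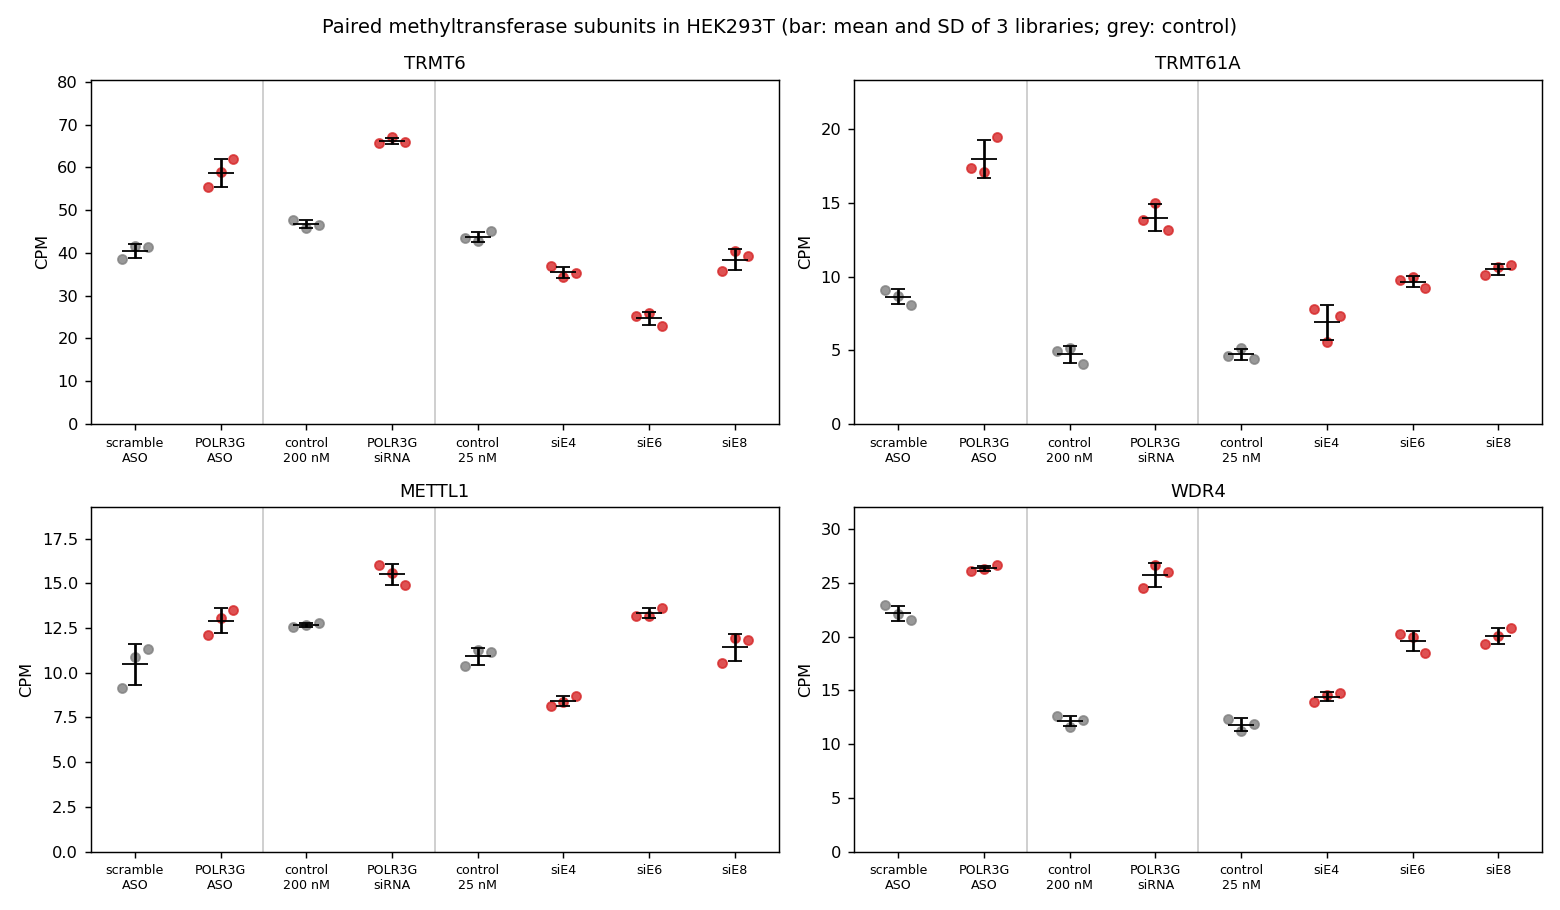
CPM of TRMT6, TRMT61A, METTL1 and WDR4 in the 24 libraries of the ASO and siRNA experiments in HEK293T (points are libraries, bars mean and SD of 3, grey points controls, vertical lines separate experiments). TRMT61A lies above its control in all 5 knockdowns, and TRMT6 lies below it with siE4, siE6 and siE8.

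TRDMT1, a cytosine methyltransferase of tRNA, rose with each siRNA. It was at 13.4, 14.2 and 13.8 CPM and 29.6, 28.9 and 30.9 CPM without and with the POLR3G siRNA (1.11 ± 0.042), and its rises with siE4, siE6 and siE8 were 0.51 ± 0.060, 0.83 ± 0.059 and 0.98 ± 0.059. Protein-coding transcripts took 24.7% to 55.7% of its reads, and with average length in the fit the siE4 rise was 0.11 and not called (adjusted p = 0.429). In that fit the rises with the POLR3G siRNA, siE6 and siE8 were smaller but still called, at 0.51, 0.43 and 0.46, and on protein-coding transcripts alone the siE8 rise was 0.57. With the ASO, TRDMT1 was not called over all reads (0.097) or with average length in the fit (-0.053). On protein-coding transcripts alone it was called higher with the ASO (0.51, edgeR adjusted p = 0.000431). Over all reads, the scramble ASO libraries held TRDMT1 at 22.5, 25.3 and 25.8 CPM, above the siRNA controls. TRMT10A, a guanosine methyltransferase, was at 24.2, 26.8 and 24.9 CPM and fell to 12.0, 10.9 and 10.6 CPM with the POLR3G siRNA (-1.18 ± 0.060). With siE6 it fell from 22.3, 24.8 and 25.2 CPM to 11.0, 10.8 and 11.5 CPM (-1.12 ± 0.061), and neither pair of groups overlapped. TRMT10C, its mitochondrial relative and a subunit of mitochondrial RNase P, rose in all 5 knockdowns, by 0.23 to 0.63. TRMT11, which methylates guanosine, fell with siE4 from 49.6, 48.5 and 50.1 CPM to 33.0, 33.6 and 33.4 CPM (-0.57 ± 0.034) and was called in no other HEK293T knockdown. TRMT1, which makes dimethylguanosine, rose by 0.21 (siE4) to 0.77 (POLR3G siRNA) in 4 knockdowns and less with siE8. NSUN2, a cytosine methyltransferase, rose with the ASO (0.27), siE6 (0.46) and siE8 (0.23). It was also called higher with the POLR3G siRNA (0.16), though not on protein-coding transcripts alone (0.025, edgeR adjusted p = 0.43).

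Enzymes of the wobble base and anticodon loop gave 3 higher and 1 lower call among 7 with the ASO, 6 and 1 with the POLR3G siRNA, 1 and 2 with siE4, 4 and 2 with siE6, and 3 and 1 with siE8. CTU2 and CTU1 form the enzyme that thiolates the wobble uridine, and CTU2 rose with the POLR3G siRNA (0.97 ± 0.049) and siE6 (0.62 ± 0.064). CTU2 overlaps PIEZO1 on the opposite strand. With siE4, CTU1 went from 4.29, 5.84 and 5.35 CPM to 6.91, 7.01 and 6.34 CPM (0.39 ± 0.12, adjusted p = 0.0157). CTU1 was also called higher with the ASO (0.42) and siE8 (0.57) and lower with the POLR3G siRNA (-0.27). The ASO call was lost without the second scramble library or the third POLR3G ASO library (adjusted p = 0.0624 and 0.0671). The fall with the POLR3G siRNA was lost with DESeq2 (adjusted p = 0.171), with average length in the fit (0.118) and without any one of 4 of the 6 libraries, all but the first control and first siRNA libraries (0.0895 to 0.128). The siE4 call was lost without the first control library (adjusted p = 0.0647) and without the second siE4 library (0.0507). ALKBH8, which finishes a methyl ester on the wobble uridine, rose with the POLR3G siRNA (0.84) and siE8 (0.48). It was also called higher with the ASO (0.23), though not with average length in the fit (adjusted p = 0.104), and lower with siE6 (-0.21), though not without the third control library (0.0639) or the third siE6 library (0.0544). ELP3, the catalytic subunit of Elongator, which starts that modification, was lower with siE4 (-0.44 ± 0.043) and siE6 (-0.34 ± 0.042). With the POLR3G siRNA it was called higher (0.18 ± 0.030), a value of 0.43 on protein-coding transcripts alone and of 0.018 with average length in the fit, where it was not called (adjusted p = 0.7). TRIT1, which adds an isopentenyl group beside the anticodon, rose with the ASO, the POLR3G siRNA and siE6 (0.35, 0.45 and 0.49), and on protein-coding transcripts alone the ASO and siE6 values were 0.53 and 0.75. With siE8 it went from 27.6, 25.8 and 24.9 CPM to 20.1, 19.3 and 20.1 CPM (-0.40 ± 0.057), a fall that was -0.22 on protein-coding transcripts alone and not called (adjusted p = 0.156).

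ADAT2 and ADAT3, the subunits of the deaminase that makes inosine at the wobble base, both rose with the POLR3G siRNA (0.24 ± 0.022 and 0.83 ± 0.14) and siE6 (0.34 ± 0.080 and 0.80 ± 0.15). ADAT2 was called lower with the ASO (-0.12) and siE4 (-0.28). With average length in the fit its values were -0.031 with the POLR3G siRNA, 0.0060 with siE6 and -0.14 with siE4, none called, and -0.35 with the ASO, which was called. The ASO fall was not called on protein-coding transcripts alone (-0.029) or without the third POLR3G ASO library (adjusted p = 0.0519). ADAT3 shares its strand with SCAMP4, which held many more reads. The dihydrouridine synthase DUS2 (chromosome 16, 67987746 to 68079320) had the largest fall of any member over the 9 treatments. It was at 35.6, 33.8 and 34.8 CPM in the 200 nM control and at 13.1, 12.5 and 13.2 CPM with the POLR3G siRNA, a log2 change of -1.43 ± 0.039 (adjusted p = 4.17e-09). With siE4 it fell from 34.5, 36.0 and 36.7 CPM to 19.9, 19.5 and 19.3 CPM (-0.87 ± 0.049), with siE8 to 28.6, 31.8 and 30.9 CPM (-0.23 ± 0.048), and with the ASO it was not called (0.02 ± 0.049). DUS2 overlaps DPEP2 and DDX28 on the opposite strand. In the scramble ASO control DUS2 was at 22.2, 21.15 and 22.3 CPM. The eGFP control held it at 20.6, 20.4 and 20.1 CPM, also below the siRNA controls. PUS1, a pseudouridine synthase, rose in all 5 knockdowns, by 0.23 to 0.66 (with siE6 by 0.30, or 0.52 with average length in the fit), and PUS7, another such enzyme, rose with the POLR3G siRNA (0.18, and 0.12 with average length in the fit), siE4 (0.22) and siE6 (0.13) and fell with siE8 (-0.17). The siE6 call was lost without any one of the first and the second control library and the second siE6 library (adjusted p = 0.0514 to 0.149).

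XPOT (chromosome 12, 64404350 to 64451127), the exporter of tRNA, was lower in 4 of the 5 knockdowns. At 25 nM its control libraries held 627, 632 and 682 CPM and its siE4 libraries 344, 344 and 339 CPM, a log2 change of -0.92 ± 0.041 (adjusted p = 1.52e-09). Its level went from 669.7, 644 and 669.8 CPM to 526, 537 and 532 CPM with the ASO (-0.31 ± 0.022) and from 703, 708 and 729 CPM to 530.5, 527 and 538 CPM with the POLR3G siRNA (-0.42 ± 0.019). The siE6 change was -0.25 ± 0.041, and with siE8 it rose by 0.18 ± 0.041. XPO5, which chiefly exports microRNA precursors, had log2 values between -0.21 (siE6) and 0.19 (POLR3G siRNA), which were -0.12 and 0.082 with average length in the fit.

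Whether the POLR3G reagents acted alike was asked by the difference of their effects, each against its own control, fitted over the 12 libraries of both experiments. The effect differed for 36 of 46 members, of which 9 had the larger value with the ASO and 27 the larger with the siRNA, beside 33.8% and 33.0% of all genes. RTCB had the largest difference in favour of the siRNA (-1.48 ± 0.029, ASO minus siRNA), with an ASO effect of -0.13 and an siRNA effect of 1.32. DUS2 differed by 1.42 ± 0.056, with an ASO effect of 0.02 and an siRNA effect of -1.43. TRNT1 differed by 1.81 ± 0.043 on all reads and by -1.23 (edgeR adjusted p = 0.00649) on protein-coding transcripts, the opposite direction. The reagents also differ in chemistry, experiment and the level of MAF1, which cannot be told apart here. Their controls stood at unlike levels too. RTCB was at 165, 162 and 160.1 CPM with the scramble ASO and at 91.2, 92.0 and 91.7 CPM with the control siRNA. In the same order, DUS2 was at 22.2, 21.15 and 22.3 CPM and 35.6, 33.8 and 34.8 CPM. TRNT1 was at 116, 122 and 124 CPM and 66.7, 68.9 and 70.2 CPM. The part of this in the differences was not tested.

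Whether siE4, siE6 and siE8 differed from each other was asked by a joint test of 2 contrasts. It called 44 of 46 members, beside 80.9% of all genes, and the exceptions were POP4 and RPP38. Over the 3 pairs of siRNAs the largest single difference was that of ADAT3, lower with siE4 than with siE6 by 1.18 on the log2 scale at a mean of 2.90 CPM over the 9 libraries. Among members with a mean of at least 5 CPM it was that of XPOT, for which siE4 was lower than siE8 by 1.10 and siE6 lower than siE8 by 0.43. TRMT10A was lower with siE6 than with siE8 (-0.90), higher with siE4 than with siE6 (0.97), and had a difference of 0.068 between siE4 and siE8. TRIT1 was higher with siE4 and siE6 than with siE8, by 0.39 and 0.89.

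After MAF1 overexpression no member passed the test. edgeR called 0 of 46 members, beside 0.0322% of all genes higher and 0.00643% lower, and DESeq2 also called 0. At an unadjusted p under 0.05 there were 8, beside 9.61% of all genes, and libraries did not overlap for 5, beside 16.0% of all genes. RTCB was at 168, 171 and 168 CPM with eGFP and at 169, 174 and 162 CPM with MAF1, and XPOT at 544, 525 and 542 CPM and 556, 524 and 539.7 CPM, with overlapping libraries for both. The member with the largest log2 value was TRMT61A, at -0.19 ± 0.078 (adjusted p = 0.511).

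In THP-1, 4 h of ML-60218 changed few members and by little. edgeR called 3 of 46 higher and 2 lower, beside 8.48% and 7.05% of all genes. TRMT6 was at 24.3, 25.3 and 25.8 CPM with DMSO and at 27.7, 30.8 and 29.4 CPM with ML-60218 (0.22 ± 0.046). METTL1 rose from 14.2, 13.8 and 14.1 CPM to 16.0, 16.0 and 17.0 CPM (0.22 ± 0.053), and XPOT from 203, 205 and 195 CPM to 221, 229 and 216 CPM (0.15 ± 0.027). In each of these the libraries did not overlap. POP5, a small RNase P protein, fell from 21.9, 21.7 and 22.3 CPM to 18.6, 17.8 and 19.1 CPM (-0.25 ± 0.066), and TRMT10C fell by 0.11 on the log2 scale. The METTL1 call was lost without the third ML-60218 library (adjusted p = 0.0539), the POP5 call without any one library except that one (0.0528 to 0.0933), and the TRMT10C call without any one except the third DMSO library (0.0644 to 0.134). On protein-coding transcripts alone the METTL1 and POP5 calls were lost (adjusted p = 0.1504 and 0.675), and with DESeq2 that of TRMT10C (0.0922). With average length in the fit the POP5 and TRMT10C calls were lost (0.0646 and 0.459).

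CHX changed most members, with log2 values from -1.09 to 1.10. It gave 15 members higher and 21 lower, beside 33.5% and 32.5% of all genes, with a median log2 fold change of -0.12 against -0.0056 for all genes. POP1, the scaffold of RNase P, fell from 65.1, 65.0 and 63.2 CPM to 30.2, 30.8 and 29.7 CPM (-1.09 ± 0.043), while RPP38 of the same complex rose from 8.98, 8.31 and 7.85 CPM to 17.7, 18.0 and 18.1 CPM (1.10 ± 0.063). In that complex 3 genes rose and 4 fell. RPP25 was among those lower (-0.80 ± 0.073), with libraries at 11.9, 13.6 and 11.2 CPM and 7.01, 6.92 and 7.22 CPM. RPP38 and RPP25 overlap NMT2 and SCAMP5 on the opposite strand.

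Of the 12 methylation genes, 3 rose and 6 fell with CHX. WDR4 went from 11.5, 12.3 and 11.9 CPM to 6.23, 6.66 and 5.55 CPM (-0.95 ± 0.081) and METTL1 fell with it (-0.52 ± 0.054). TRMT6 rose (0.38 ± 0.046) and TRMT61A was not called (0.17 ± 0.089). TSEN15 rose from 34.8, 35.1 and 33.5 CPM to 59.8, 62.4 and 62.9 CPM (0.84 ± 0.031), ELP3 from 91.9, 93.8 and 85.0 CPM to 162, 161 and 159 CPM (0.83 ± 0.034), and XPOT fell by 0.65 on the log2 scale. Among the dihydrouridine and pseudouridine synthases, DUS1L, PUS1 and PUS7 fell, by 0.79, 0.67 and 0.36 (for PUS7 -0.57 with average length in the fit), and DUS2 was not called. The THP-1 marker sum was also lower with CHX (3918 against 5862 CPM), and its part in these changes was not tested.

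Reads of TRIT1 in THP-1 fell mostly on TRIT1-216, a transcript annotated for nonsense-mediated decay. It took 86.0% of TRIT1 reads with DMSO and 56.7% with CHX, at 229, 239 and 252 CPM and 245, 265 and 244 CPM, and was near 0 in HEK293T (at most 1.72 CPM in a library). The protein-coding transcripts were at 24.8, 28.5 and 20.2 CPM with DMSO and 138, 132 and 134 CPM with CHX. The CHX effect was 0.67 ± 0.029 over all reads, 1.33 with average length in the fit and 2.44 (SE 0.080) on protein-coding transcripts. For TRNT1, TSEN54 and POP5 the CHX values over all reads (0.23, -0.50 and -0.31) and over protein-coding transcripts (-2.51, 0.86 and 0.061) had opposite signs, and the POP5 value on protein-coding transcripts was not called.

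With CHX present, ML-60218 changed 1 member upward and 1 downward, beside 8.75% and 7.75% of all genes. TRMT6 rose again, from 31.9, 32.5 and 33.9 CPM to 37.9, 37.9 and 40.1 CPM (0.24 ± 0.044). ALKBH8 fell from 24.6, 27.1 and 25.8 CPM to 23.1, 19.1 and 21.5 CPM (-0.28 ± 0.080), a call that was lost without any one library of the comparison except the first with both agents (adjusted p = 0.0568 to 0.132) and with average length in the fit (0.0741). The interaction, the ML-60218 effect under CHX minus that without it, was called for 0 members upward and 2 downward, beside 2.86% and 3.70% of all genes. They were RPP14 (-0.25 ± 0.067, adjusted p = 0.0427) and XPOT (-0.15 ± 0.039, adjusted p = 0.0433). XPOT rose by 0.15 without CHX and stood at -0.0002 with it, and for RPP14 the values were 0.13 and -0.13, neither called. The RPP14 interaction was not called without any one of 11 of the 12 libraries, the exception being the second with both agents (adjusted p = 0.0516 to 0.0884). That of XPOT was not called without any one of 9, the exceptions being the second CHX, the third ML-60218 and the first library with both agents (0.0508 to 0.105). Neither was called with average length in the fit (adjusted p = 0.0872 and 0.0789) or on protein-coding transcripts alone (0.0559 and 0.0638).

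**Figure D5:**
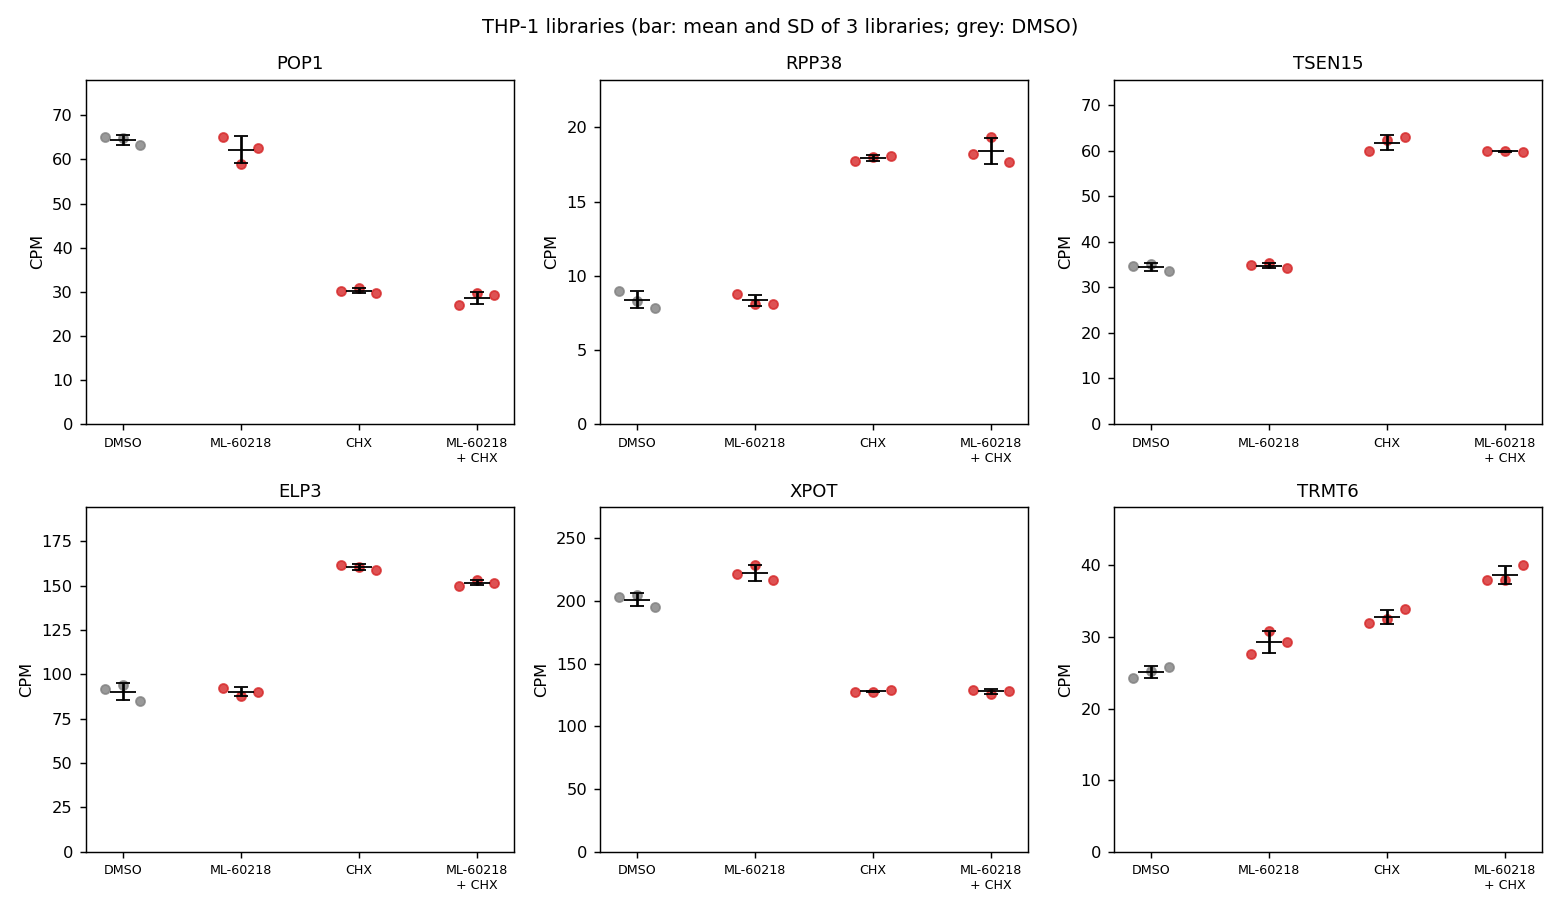
CPM of POP1, RPP38, TSEN15, ELP3, XPOT and TRMT6 in the 12 THP-1 libraries (points are libraries, bars mean and SD of 3, grey points DMSO). POP1 falls and RPP38 rises with CHX, with or without ML-60218, and TRMT6 lies higher with ML-60218 than without it both in DMSO and in CHX.

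Other genes of the pathway, listed apart from the members, were counted in the same fits. Of 66 such genes 65 were in the files. With the ASO 26 rose and 21 fell of 63 tested, and with the POLR3G siRNA 41 and 15 of 63. For siE4, siE6 and siE8 the counts of 64 tested were 25 and 18, 29 and 17, and 40 and 6. MAF1 gave 0 calls (6 at an unadjusted p under 0.05), ML-60218 0 and 5, CHX 26 and 21, and ML-60218 with CHX 3 and 2. Of all genes, 34.4% rose and 34.1% fell with the ASO, and 36.8% and 38.1% with the POLR3G siRNA. For siE4, siE6 and siE8 these shares were 26.2% and 28.7%, 31.2% and 31.8%, and 29.1% and 28.6%. For ML-60218 they were 8.48% and 7.05%, for CHX 33.5% and 32.5%, and for ML-60218 with CHX 8.75% and 7.75%. Among those with the smallest adjusted p, THUMPD1, an adaptor for tRNA acetylation, rose with the ASO (0.60), and QTRT2 (1.08) and TYW1 (1.68), enzymes of queuosine and wybutosine, rose with the POLR3G siRNA. TRMT112, the activator of TRMT11 and other methyltransferases, rose with siE4, siE6 and siE8 (1.11, 0.97 and 0.80). HSD17B10, a subunit of mitochondrial RNase P, rose with siE4 (0.93), TYW3 fell with siE6 (-1.48) and TYW1 rose with siE8 (1.05). In THP-1, ELP4 and QTRT2 fell with ML-60218 (-0.19 and -0.13), THADA and TYW5 rose with CHX (0.95 and 1.33), and TP53RK and THUMPD3 rose with ML-60218 under CHX (0.21 and 0.095).

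Levels between genes are given per length as TPM, the deposited length-scaled unit, in the 12 control libraries of HEK293T and the 3 DMSO libraries of THP-1. In HEK293T the highest members were RTRAF (median 257, range 207 to 318 TPM), XPOT (174, 143 to 226 TPM) and DDX1 (130, 112 to 145 TPM), whose ranges overlap from each to the next. The lowest were TSEN34 (2.63, 2.04 to 3.35 TPM), TRMT61A (3.93, 2.60 to 6.23 TPM) and ELAC1 (4.97, 3.09 to 5.63 TPM). The subunits of one enzyme stood at unlike levels, with TRMT6 at a median of 22.4 TPM beside TRMT61A, and POP7 at 83.3 TPM beside POP1 at 7.37 TPM. In THP-1, 31 members lay below all HEK293T control libraries, 5 lay above them all (TRIT1, ELP3, CLP1, POP1 and ELAC1) and 10 overlapped. The shares of all genes that lay so were not computed, so this split cannot be called particular to the members. POP1 was at 16.6 ± 0.44 TPM (SD, n = 3) in THP-1, and TRIT1 at 86.3 ± 4.84 TPM, mostly on the decay-annotated transcript named above. POP7 was lower in THP-1 at 19.8 ± 1.52 TPM and TRDMT1 at 2.13 ± 0.55 TPM against a HEK293T median of 8.56 TPM. The lines were handled in separate experiments, so line and experiment cannot be told apart and no test was made.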

How the data were processed

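Poly(A) RNA was sequenced in 42 libraries of HEK293T and THP-1, in 14 groups of 3. Since no label says that the 3 were separate cultures, the p-values rest on a spread that may be technical. The submitters' processing notes name bcl2fastq 2.20, Trim Galore, Salmon, DESeq2 and the build hg38. For the last 3 tools the version, and for Salmon the strand setting, is not stated there. Each deposited file gives, by its header, an estimated count and a TPM value per transcript. Estimated counts of 158359 of 194142 transcripts (91.1% of reads), matched by identifier to GENCODE 29, were summed per gene and rounded, and 8.06% to 9.54% of a library's reads were unmatched and left out. Fits over all genes used edgeR 4.0.16 in R 4.3.3 (quasi-likelihood F-test after filterByExpr and TMM), and p-values were adjusted by Benjamini and Hochberg's method over every gene tested. The SE is the log2 fold change divided by the square root of F. The fits were tested on simulated data. TPM, as deposited, served for levels between genes and for average lengths.

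The members and gene lists were chosen with earlier results of these data known. Genes given in full were, per treatment, up to 3 called members with the largest rise and 3 with the largest fall, a mean of at least 5 CPM and no overlap of groups, members called in 1 direction in at least 6 of 9 treatments, and up to 3 with the largest size in each test between treatments. Other members were named after their values were seen. Of the other pathway genes, those with the smallest adjusted p per comparison were named, except a gene that is not reported here. Alternatives were DESeq2 1.42.0, its size factors, no low-count filter, an adjusted p under 0.01, a replicate block, a length offset, more or fewer groups per fit and single libraries left out. The fit on protein-coding transcripts was added after seeing the data.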

Additional observations from a re-analysis of the deposited data

Results flagged for a closer look

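Several members responded differently under paired treatments, by a test of the difference itself. The POLR3G ASO and siRNA effects, each against its own control, differed for 36 of the 46 members by edgeR. The value was larger with the ASO for 9 and with the siRNA for 27, beside 33.8% and 33.0% of all genes. RTCB, the tRNA ligase, had the largest of these differences in favour of the siRNA (-1.48 on the log2 scale, ASO minus siRNA). DUS2, the dihydrouridine synthase, differed by 1.42. TRNT1, the CCA-adding enzyme, differed by 1.81 over all of its reads, most of which were on a retained-intron transcript. On protein-coding transcripts alone its difference was -1.23, the opposite direction. Controls of the reagents stood at unlike levels of these genes, as given above.

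In THP-1, the ML-60218 effect under CHX minus that without it was -0.25 for RPP14 of RNase P and -0.15 for XPOT, the tRNA exporter. No other member was called, giving 0 upward and 2 downward of 46, beside 2.86% and 3.70% of all genes. Each of these calls was lost in 15 of 19 alternative settings.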

How the results depend on the processing

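The 59 values of the members given in full were recomputed under the alternative settings, which gave 875 recomputed values. Of these, 800 kept their direction and their side of the threshold, 73 lost the call and 2 reversed. Since the 59 were chosen as called and mostly as the largest, this does not describe the members' calls in general. Both reversals were TRNT1 on protein-coding transcripts alone, at -2.27 for the ASO and -1.23 for the ASO minus siRNA effect. The values that ever changed belong to 13 results. The count of members called stayed within 1.5 times in every setting for the ASO, POLR3G siRNA, siE4, siE6, siE8, MAF1 and CHX treatments, for the ASO minus siRNA effect and for the joint test of the siRNAs to POLR3GL.

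It moved further only where few members were called. With ML-60218, 5 members were called, against 2 at an adjusted p under 0.01, 3 with the length offset and 3 to 5 when single libraries were left out. With ML-60218 under CHX the 2 called became 1 at an adjusted p under 0.01 and 1 to 2 without single libraries. For the interaction the 2 called became 0 at an adjusted p under 0.01, 1 with DESeq2 size factors, 1 with no filter on low counts, 0 with the length offset, 0 on protein-coding transcripts and 0 to 1 without single libraries.

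Samples of different groups share replicate numbers. The deviations of 27 same-numbered pairs of a treatment and its own control correlated at -0.141 to 0.089, none over 0.1. Between treatments, the first siE6 and first siE8 libraries correlated at 0.14. A differently numbered pair, the first 25 nM control and the third siE4 library, reached 0.128. The main fits did not pair libraries by number. With the replicate block, 30, 40, 27, 40, 35, 0, 4 and 36 members were called for the ASO, POLR3G siRNA, siE4, siE6, siE8, MAF1, ML-60218 and CHX, 1 for ML-60218 under CHX and 0 for the interaction. The block gave 35 for the ASO minus siRNA effect and 44 for the joint test. Counts of the 3 pairs of 25 nM control libraries differed by a chi-square per degree of freedom of 30.1, 17.1 and 21.7. The pairs of siE6 gave 20.05, 8.58 and 10.65, and those of the 200 nM control 4.32, 4.39 and 4.77.

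Salmon divides reads between overlapping transcripts by estimation, and 6 members had under 50% of their reads on protein-coding transcripts in some group (ELAC1, POP5, TRDMT1, TRIT1, TRNT1 and TSEN54). The cause of the changes between settings was not tested.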
